A study of Mus musculus with 2 samples.

Results

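The insulin genes Ins1 and Ins2 and the amylin gene Iapp are described here across single cells of the mouse pancreas at embryonic day 18.5. These 3 genes were chosen by symbol, out of 27998 genes in the deposited count matrices, and all 3 were detected. The study took C57BL/6 embryos and made 1 droplet library labelled control and 1 labelled knockout, the second named Dpy30∆P in the labels, after 20 minutes of trypsin digestion. The labels give neither the genotype of the control nor what drove the deletion, the deleted part of Dpy30 or the number of embryos pooled. Each group is 1 library, so no difference below has a replicate check and none was tested across animals. Every interval given is at 95% and holds counting error alone.

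Insulin is made by beta cells, which fold proinsulin in the endoplasmic reticulum, cleave it in maturing granules and store the hormone with zinc in dense secretory granules. Mice carry a pair of insulin genes: Ins2 is the counterpart of the single human gene, and Ins1 is a copy that arose by retroposition and lacks an intron of Ins2. Amylin, or islet amyloid polypeptide, is a peptide hormone that beta cells co-secrete with insulin and that slows gastric emptying, and in rodents some delta cells make it too. In GENCODE M21 (GRCm38), Ins1 lies on the plus strand of chromosome 19 at 52264297 to 52265476 and has 2 exons. The coding Ins2 transcript that reaches furthest 3′ lies on the minus strand of chromosome 7 at 142678656 to 142679685, with 3 exons. Iapp lies on the plus strand of chromosome 6 at 142298423 to 142303961 with 3 exons, inside the span of Slco1a5 on the opposite strand. Whether counting used strand is not given in the sources used here. Without strand, reads of Slco1a5 and Iapp at that place cannot be told apart.

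The Ins1 and Ins2 transcripts were alike over 418 aligned bases, of which 91.9% were identical, and their longest identical run was 56 bases. Reads that fall wholly inside such a run cannot be assigned to 1 of the 2 genes, so some uncertainty remains in how counting split them.

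RefSeq promoter windows (GRCm38.p6, from 250 bases before the annotated start to 50 after it) were found for 2 of the 3 genes, Ins1 and Iapp, and are shown because both genes varied together across cells. Capitals mark matches, on either strand, to CATCTG, an E box of the kind bound by Neurod1 dimers, and to TAAT, the core bound by homeodomain factors such as Pdx1. The Ins1 window is chr19:52264047-52264346 and the Iapp window chr6:142298175-142298474, both on the plus strand and written 5′ to 3′.
Ins1 promoter window: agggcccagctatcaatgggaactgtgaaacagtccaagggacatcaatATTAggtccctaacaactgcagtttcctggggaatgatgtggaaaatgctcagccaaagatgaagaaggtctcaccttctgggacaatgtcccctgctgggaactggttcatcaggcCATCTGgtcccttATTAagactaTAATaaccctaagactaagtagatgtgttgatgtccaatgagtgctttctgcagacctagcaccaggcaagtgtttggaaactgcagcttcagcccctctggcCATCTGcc
Iapp promoter window: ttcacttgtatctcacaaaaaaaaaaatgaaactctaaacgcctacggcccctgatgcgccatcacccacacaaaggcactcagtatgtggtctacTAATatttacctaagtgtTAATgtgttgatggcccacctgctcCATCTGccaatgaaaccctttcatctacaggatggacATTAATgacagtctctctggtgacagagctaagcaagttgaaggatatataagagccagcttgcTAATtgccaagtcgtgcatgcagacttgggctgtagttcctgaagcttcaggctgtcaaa
Ins1 held 2 matches to CATCTG and 3 to TAAT, none overlapping another. Iapp held 1 match to CATCTG and 5 to TAAT, of which the third and the fourth overlap as ATTAAT. Of 32851 windows of the same length, 17.2% held CATCTG at least once, 1.83% held it at least 2 times, and 58.0% held TAAT. At least 3 matches to TAAT occurred in 20.0% of windows and at least 5 in 6.86%. Both motifs occurred together in 11.2% of windows. A match is a description of the letters and not a measured binding site.

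Transcript ends were counted as unique molecular identifiers (UMIs), 25398522 over 3986 control barcodes and 33048640 over 4779 barcodes of the library labelled knockout. Levels are given as a percent of UMIs or as CPM (UMIs per 1000000). Unless stated, the total for the 3 members, markers of other cells and free RNA is all UMIs. For other genes it is all UMIs except those of the members. Cells with at least 500 detected genes and at most 10% mitochondrial UMIs that were not called doublets were kept: 2611 control cells (median 6831 UMIs) and 3233 knockout-labelled cells (median 6631 UMIs). The libraries shared 27 barcodes, 12 of them among kept cells. Dpy30 itself, which encodes a subunit shared by complexes that methylate histone H3 at lysine 4, was not lower in the library labelled knockout: it stood at 119 CPM in all kept control cells and 145 in all kept knockout-labelled cells. In the endocrine cells described below the values were 206 and 339 CPM. A 3′ tag outside the deleted part would check nothing, and the deleted part is not given, so the label is used here as deposited. The control library was male by its sex-linked transcripts (1 Xist and 1624 Ddx3y UMIs), and the library labelled knockout was female (48052 Xist and 0 Ddx3y UMIs). Cells were resuspended in 500 µL for the control and 250 µL for the other library before the concentration was adjusted. Genotype, sex, embryo, handling and library therefore cannot be told apart in anything that follows.

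Endocrine cells were taken by a gate that used none of the 3 genes: at least 5 UMIs in all of Chga, Chgb and Pcsk1n (granule proteins) and Neurod1 and Pax6 (endocrine transcription factors). The gate took 345 of 2611 control cells and 211 of 3233 knockout-labelled cells, with median depths of 10100 and 7523 UMIs. Cells were also clustered without the hormone genes, and 336 of the 345 and 197 of the 211 gated cells fell into 3 endocrine-like clusters, named here by their leading genes. Of the gate genes, Chga was lower in the knockout-labelled gated cells (ratio 0.528), as was Chgb (ratio 0.657), while Pcsk1n, Pax6 and Neurod1 had ratios of 0.835, 0.875 and 1.14. The gate left out 29 control and 34 knockout-labelled cells of those clusters. Just outside the gate, at 3 or 4 gate UMIs, the 3 members together stood at 30435 CPM in 12 control cells and 531 in 10 knockout-labelled cells. Just inside, at 5 or 6 gate UMIs, they stood at 5352 CPM in 12 control cells and 2596 in 8 knockout-labelled cells. A few cells carry these sums: the median cell stood at 2030 and 68.4 CPM just outside and at 1497 and 362 CPM just inside.

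Markers of other cells were present at low levels in gated cells. The 13 acinar markers summed to 2520 CPM in control and 4460 in knockout-labelled gated cells, against 146261 and 81689 in acinar-like cells, with Pnlip at 0 in the second. The 6 red-cell markers summed to 6540 and 10176 CPM. The 9 mesenchymal markers summed to 81.6 and 472 CPM, with none at 0. The 12 ductal markers summed to 2207 and 2010 CPM. The remaining 6 lists summed to between 4.91 and 166 CPM. Among their markers, Tie1 (endothelial), Ptprc (blood cells), Myh11 (smooth muscle) and Cd79b, Ms4a1 and Nkg7 (lymphoid) were at 0 in both libraries. The part of these transcripts in the results below was not tested.

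All 3 hormone genes made up a smaller share of endocrine RNA in the library labelled knockout, and the insulin genes more so than Iapp. Ins1 supplied 6.52% of all UMIs of control gated cells and 2.70% of those of knockout-labelled gated cells (ratio 0.414, interval 0.410 to 0.418). Ins2 supplied 13.8% and 5.73% (ratio 0.415, interval 0.412 to 0.417). Iapp supplied 2.60% and 1.71% (ratio 0.656, interval 0.648 to 0.664). Together the 3 genes accounted for 22.9% of UMIs in control and 10.1% in knockout-labelled gated cells. Because counts come from 3′ ends, with 1 tag per captured transcript, these levels were not divided by transcript length. The knockout-labelled sums rested on few cells: 10 of the 211 cells held 49.9% of that library's gated Ins2 UMIs, whereas 10 of the 345 control cells held 16.5%. It took 11 knockout-labelled and 42 control cells to reach 50% of the Ins2 UMIs. Without the 10 cells richest in the 3 members in each library, the ratios were 0.281 for Ins1, 0.261 for Ins2 and 0.557 for Iapp. As 10 cells are a larger part of 211 than of 345, this removed a larger share of the knockout-labelled cells.

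Across all genes, 9.55% of 11060 genes with at least 20 UMIs in gated cells were lower by at least 1.5-fold in the library labelled knockout, and 11.2% were higher. All 3 members were among the lower genes. For these counts the 3 members were left out of the totals, since their own share differs so much. With them in the totals, every gene's log2 ratio moves up by 0.22, and the split becomes 568 genes lower and 2384 higher, against 1056 lower and 1237 higher.

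Per cell, the insulin genes took either a very small or a large share of the RNA in most control cells, and Iapp was spread more evenly. In control gated cells the lowest Ins2 share of a cell's UMIs was 0%, the median 0.352% and the highest 41.7%, while in knockout-labelled cells the lowest was 0%, the median 0.0173% and the highest 38.8%. The Ins1 share ran from 0% through a median of 0.0589% to 27.3% in control cells, and from 0% through 0.0105% to 19.3% in knockout-labelled cells. The Iapp share ran from 0% through a median of 1.94% to 9.27% in control cells, and from 0% through 0.414% to 9.48% in knockout-labelled cells. The ranges of the libraries overlapped for each gene, with the highest Ins1 shares in control cells, and each median was lower in the library labelled knockout.

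**Figure D1:**
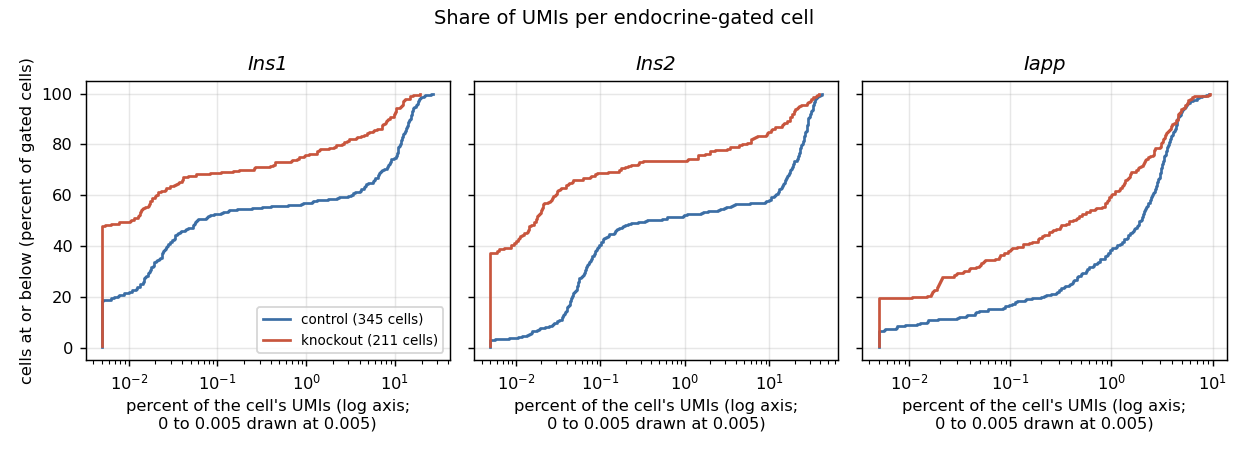
Cumulative distributions of the share of each gated cell's UMIs (horizontal log axis, percent) that came from Ins1, Ins2 or Iapp, with the percent of cells at or below each share on the vertical axis, for 345 control cells and 211 cells of the library labelled knockout. The Ins2 curve of control is nearly flat in the middle, with 40 of 345 cells from 0.1 to 1 percent and 20 from 1 to 10 percent, and no Iapp share reaches 10 percent.

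A cell that devotes at least 10% of its UMIs to the 3 members was taken as hormone-rich. Such cells were 150 of 345 in control (43.5%, interval 38.2 to 48.9) and 45 of 211 in the library labelled knockout (21.3%, interval 16.002 to 27.5). They held 97.4% and 91.0% of their library's gated member UMIs. At the other end, the members supplied under 0.1% of UMIs in 41 control cells (11.9%, interval 8.66 to 15.8) and 75 knockout-labelled cells (35.5%, interval 29.1 to 42.4). The hormone-rich cells were also the deepest, with a median of 15222.5 UMIs in control and 10346 in the library labelled knockout. When each cell was thinned to 2000 UMIs, which left out 1 shallow gated cell per library, an Ins1 UMI was seen in 61.0% of control and 38.6% of knockout-labelled gated cells (82.8% and 53.3% unthinned). For Ins2 the thinned values were 82.3% and 43.3%, and for Iapp 87.5% and 72.4%. The same thinning in cells outside the gate gave 54.0% and 14.1% for Ins2, which is the level beside which the gated shares stand. Knockout-labelled gated cells without an Ins2 UMI were therefore common at equal depth.

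Cells with beta cell markers showed a smaller difference in the pooled levels. At least 3 UMIs in all of Nkx6-1, Pdx1, Slc2a2, Slc30a8, G6pc2 and Mafa marked 250 control gated cells (72.5%, interval 67.4 to 77.1) and 105 knockout-labelled gated cells (49.8%, interval 42.8 to 56.7). This is a range on a sum of transcripts and not a cell type, and it moves with depth (medians of 12683 and 9367 UMIs). In those cells Ins1 supplied 7.71% and 4.58% of UMIs (ratio 0.595, interval 0.589 to 0.600). Ins2 supplied 16.3% and 9.83% (ratio 0.601, interval 0.597 to 0.605), and Iapp 2.95% and 2.41% (ratio 0.818, interval 0.807 to 0.828). Medians per cell in this range lay further apart, at 4.51% and 0.676% for Ins1 and 13.6% and 1.41% for Ins2. For Iapp the medians were 2.64% and 1.57%.

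By cluster, the pooled levels of the members ranked in the same order in both libraries except for 1 case. In the cluster led by Ins1, Ins2 and Sst (212 control and 100 knockout-labelled gated cells), Ins1 supplied 9.40% and 5.36% of UMIs, Ins2 19.9% and 11.3%, and Iapp 3.41% and 3.11%. The knockout to control ratio of Iapp there was 0.913 (interval 0.901 to 0.925), against 0.570 for Ins1 and 0.566 for Ins2. Medians per cell in that cluster were 6.95% and 0.957% for Ins1, 17.6% and 1.26% for Ins2, and 2.90% and 2.62% for Iapp. In the cluster led by Gcg, the glucagon gene (94 and 66 cells), Iapp was the most abundant member, at 12911 CPM in control and 5094 in knockout-labelled cells (ratio 0.395, interval 0.378 to 0.412). Insulin was low there: Ins2 stood at 1424 and 2030 CPM and Ins1 at 660 and 1097. Of the 1040 knockout-labelled Ins2 UMIs in the Gcg-led cluster, 508 came from 1 cell. Without the richest cell of each library the Ins2 ratio was 0.747 in place of 1.43, and the Ins1 ratio was 1.502 in place of 1.66. The median cell went the other way for Ins1, at 182 CPM in control and 0 in the library labelled knockout. An Ins1 UMI was in 71 of 94 and 28 of 66 cells. For Ins2 the median cell stood at 697 and 100 CPM.

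The cluster led by Neurog3, a transient factor of endocrine precursors, held 30 and 31 gated cells. Iapp was its most abundant member in control, at 1046 CPM, and stood at 1482 in the library labelled knockout. Ins2 stood at 410 CPM in control and 5109 in the library labelled knockout, which put it above Iapp in that library. That value rested on 1 knockout-labelled cell with 1461 of the 1500 Ins2 UMIs. The control value of Iapp also rested on 1 cell, with 190 of its 349 UMIs. Without the richest cell of each library, Iapp stood at 500 and 1082 CPM (ratio 2.16 in place of 1.42). The median of all cells went the other way, at 57.0 Iapp CPM in control and 0 in the library labelled knockout. An Iapp UMI was in 16 of 30 and 13 of 31 cells, so few cells carried the pooled values. Without the richest cell of each library, Ins2 stood at 409 and 140 CPM (ratio 0.343, interval 0.233 to 0.494). The control order of the pooled levels then held in both libraries. In cells with no gate UMI, Ins2 stood at 427 CPM in control and 73.7 in the library labelled knockout. The control value of 409 CPM was thus not above that level, and the part of free RNA in this ratio was not tested.

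**Figure D2:**
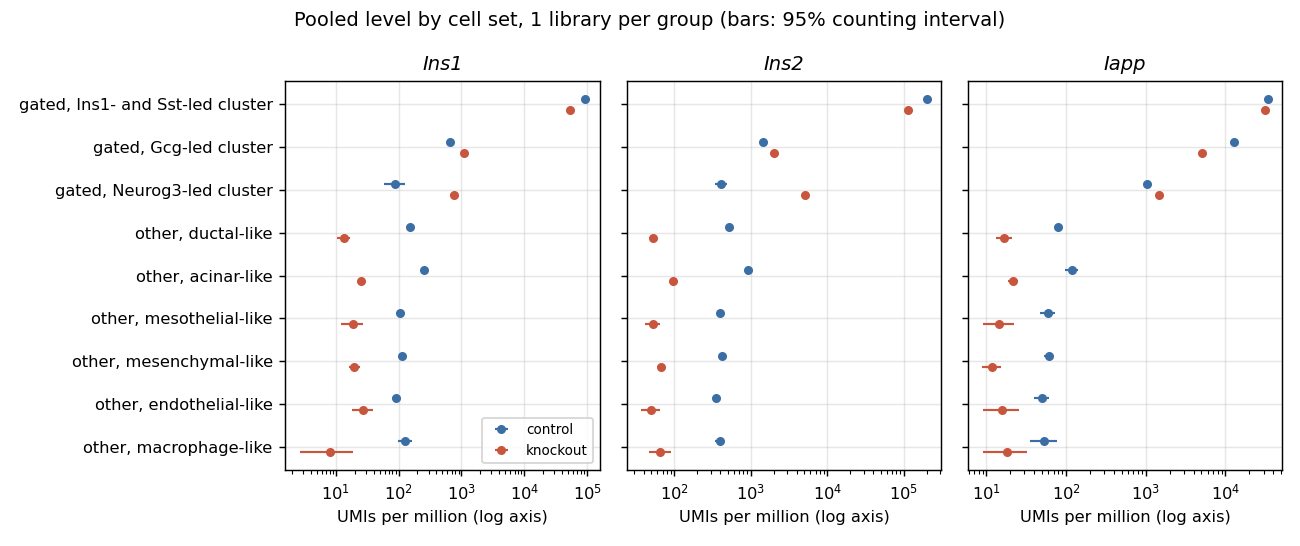
Pooled level of each gene (CPM, log axis) in the 3 endocrine-like clusters within the gate and in 6 classes of cells outside it, with 95% counting intervals, for 1 control library and 1 library labelled knockout. The 3 genes lie orders of magnitude higher in the Ins1- and Sst-led cluster than outside the gate, and outside the gate the knockout-labelled points all lie left of the control points.

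The balance of the insulin genes was close in the pooled sums and spread more widely over single cells in the library labelled knockout. Ins1 made up 32.1% of Ins1 and Ins2 UMIs in control gated cells (interval 32.0 to 32.2) and 32.0% in knockout-labelled gated cells (interval 31.8 to 32.3). The pooled difference, knockout minus control, was -0.028 percentage points. It was 2.28 points after each cell was thinned to 2000 UMIs, 1.62 without the 10 cells richest in members in each library and 0.245 with a gate without granins, so its sign rests on these choices. Among cells with at least 100 insulin UMIs (164 control and 60 knockout-labelled), the Ins1 percent had medians of 31.8% and 32.2%. Its spread differed: the standard deviation over cells was 12.6 percentage points in control and 26.6 in the library labelled knockout. Counting error alone would give 1.14 and 1.67 points.

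Cells in which Ins1 outnumbered Ins2 were 5 of 164 in control (3.05%, interval 0.997 to 6.97) and 16 of 60 in the library labelled knockout (26.7%, interval 16.1 to 39.7). This threshold of 50% was set after the values were seen. Of the control cells, 4 lay within 5 points of the threshold, and of the 16 knockout-labelled cells only 1 did. Ins1 exceeded 80% in 0 of the control cells (0 of 164, for which a limit of 3 counts allows a share of up to 1.83%) and in 6 of the knockout-labelled cells. The most one-sided of these held 262 Ins1 UMIs and 1 Ins2 UMI, beside 257 Iapp UMIs and 7129 UMIs in all. Another held 183 Ins1, 1 Ins2 and 405 Iapp UMIs, and a further cell 489 Ins1, 13 Ins2 and 223 Iapp UMIs. The highest control cell held 161 Ins1 and 60 Ins2 UMIs. Cells at the opposite end existed in both libraries: Ins1 was under 5% in 12 control cells (7.32%) and 6 knockout-labelled cells (10.0%), and 1 control cell held 28 Ins1 beside 3692 Ins2 UMIs.

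In the library labelled knockout, the share of Ins1-majority cells was higher at lower insulin levels. Among cells with 20 to 99 insulin UMIs, below the minimum used above, 1 of 18 control and 7 of 8 knockout-labelled cells were over 50% Ins1, and the pooled Ins1 percent was 15.8% and 74.1%. Among cells with at least 100 and under 1000 insulin UMIs, 2 of 21 control and 11 of 22 knockout-labelled cells were over 50% Ins1, and the pooled Ins1 percent was 17.1% and 45.6%. From 1000 to under 3000 insulin UMIs, 1 of 26 and 4 of 16 were, and the pooled percent was 26.1% and 34.3%. Among cells with at least 3000 insulin UMIs, 2 of 117 and 1 of 22 were, and the pooled percent was 32.7% and 30.3%. The part of the sequence that Ins1 and Ins2 share, and of depth, in these differences was not tested.

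**Figure D3:**
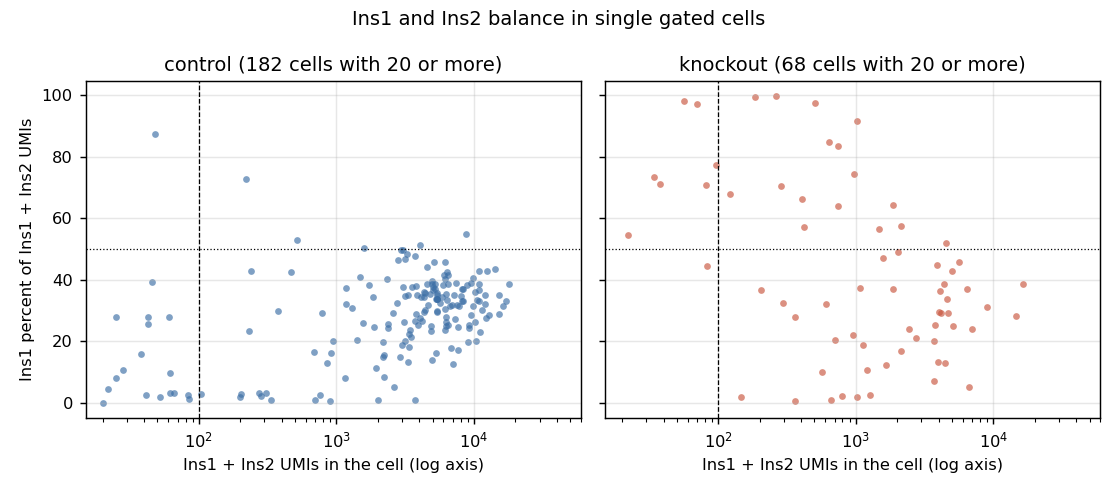
Ins1 percent of Ins1 and Ins2 UMIs (vertical axis) against the sum of both (horizontal log axis) in single gated cells with at least 20 such UMIs, control on the left and the library labelled knockout on the right. The dashed line marks 100 UMIs and the dotted line 50 percent; above 100 UMIs, 5 control and 16 knockout-labelled cells lie over the dotted line.

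Other transcripts of the 16 Ins1-majority cells were set beside those of the remaining 44 knockout-labelled cells with at least 100 insulin UMIs. These are values of cells in 1 library, chosen after the balance was seen, and the medians of depth were 8172.5 and 12023.5 UMIs. The sets also differed in insulin, with medians of 689 and 2590 insulin UMIs, and cells of like insulin level were not compared. Of the 16 cells, 15 were in the Ins1- and Sst-led cluster and 14 had at least 3 beta-marker UMIs. Nnat, an imprinted gene of the endoplasmic reticulum that aids insulin processing, had a UMI in 8 of 16 and 36 of 44 cells, with median levels of 52.5 and 3009 CPM. Slc2a2, the glucose transporter of rodent beta cells, had a UMI in 1 of 16 and 23 of 44 cells. Ppy, pancreatic polypeptide, had a UMI in 16 of 16 and 24 of 44 cells, with medians of 1390 and 115 CPM. The beta cell factor Pdx1 had medians of 244 and 275 CPM. These lay closer together than those of Nnat and Ppy. Nkx6-1, another beta cell factor, had medians further apart, at 163 and 302 CPM, with a UMI in 11 of 16 and 40 of 44 cells. Slc30a8, a zinc transporter among the beta markers, had medians of 150 and 330 CPM. The median Iapp level, here on totals without the members, was 27114.5 and 49893 CPM.

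Iapp was less tied to insulin than Ins1 and Ins2 were to each other. Across gated cells, the Pearson correlation of log2(1 + UMIs per 10000) was 0.95 for Ins1 with Ins2 in 345 control cells and 0.90 in 211 knockout-labelled cells. For Ins1 with Iapp it was 0.70 in both, and for Ins2 with Iapp 0.73 and 0.69. The totals for these correlations left out the members. Cells of a library share its free RNA and differ in depth, so these correlations are descriptions. There were 12.8 Iapp UMIs per 100 insulin UMIs in control gated cells (interval 12.7 to 12.9) and 20.2 in the library labelled knockout (interval 20.0 to 20.5). Among cells with at least 3000 insulin UMIs the pooled values were closer, at 10.5 and 12.7, and at 1000 to under 3000 insulin UMIs they were 12.6 and 19.5. Below that the order turned, with 51.4 in control and 42.1 in the library labelled knockout at 100 to under 1000 insulin UMIs, and 319 and 209 at 20 to 99. The order was also turned in the Gcg-led cluster, at 619 and 163. In the Neurog3-led cluster the values were 210 and 25.2, but there 1 knockout-labelled cell held most insulin UMIs. Without the 10 cells richest in members, the knockout to control ratio of Iapp per insulin was 2.08 in place of 1.58.

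Many gated cells made Iapp with little insulin. Iapp supplied at least 1% of UMIs and insulin under 1% in 52 of 345 control cells (15.1%, interval 11.5 to 19.3) and 28 of 211 knockout-labelled cells (13.3%, interval 9.002 to 18.6), so this share lay within counting error between the libraries. Of these cells, 31 of the 52 in control and 9 of the 28 in the library labelled knockout were in the Gcg-led cluster, and 20 and 17 in the Ins1- and Sst-led cluster. Both at least 1% was the pattern of 160 control cells (46.4%) and 56 knockout-labelled cells (26.5%). Insulin at least 1% with Iapp under 1% was rare, in 8 and 5 cells. Neither reached 1% in 125 control cells (36.2%) and 122 knockout-labelled cells (57.8%).

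**Figure D4:**
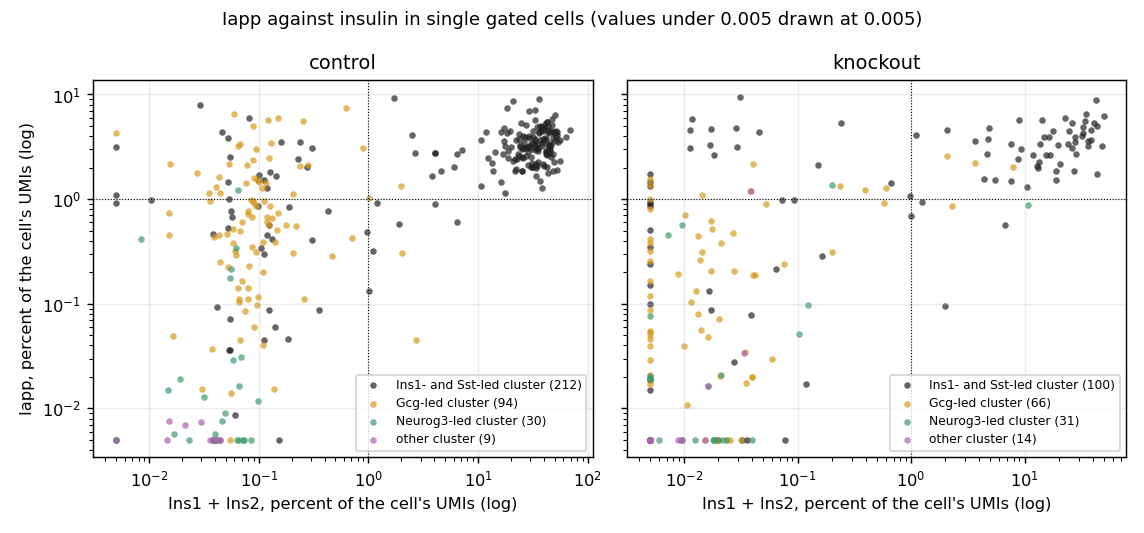
Iapp share against insulin share of UMIs (both log axes, percent; values under 0.005 drawn at 0.005) in single gated cells, coloured by cluster, with control on the left and the library labelled knockout on the right. Dotted lines mark 1 percent: 160 control and 56 knockout-labelled cells lie at the upper right, and 52 and 28 at the upper left.

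Hormone transcripts were also lower outside the gate in the library labelled knockout. In the 2266 control and 3022 knockout-labelled cells outside the gate, Ins1 stood at 163 and 20.9 CPM, Ins2 at 544 and 74.4, and Iapp at 91.4 and 18.6. Among 14757 genes with at least 20 UMIs in these cells, 18.2% were lower by at least 1.5-fold and 6.89% were higher. Over all barcodes of a library, the members stood at 40007 CPM in control and 6243 in the library labelled knockout. Cells with no gate UMI held the members at 1.53% and 1.78% of those levels. The endocrine-like cells that the gate left out stood at 6509 CPM in control and 238 in the library labelled knockout, and held 1457 of the 13880 control and 68 of the 2988 knockout-labelled member UMIs outside the gate. Some control cells outside the gate were rich in the members: 47 held at least 1% of their UMIs from them, against 0 in the library labelled knockout. An unnamed cluster of low depth led by haemoglobin genes (60 control and 96 knockout-labelled cells outside the gate) stood at 8034 and 190 CPM. The level outside the gate was 287-fold lower than in gated cells in control and 890-fold lower in the library labelled knockout.

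After thinning to 2000 UMIs, which left out 74 control and 113 knockout-labelled shallow cells, 54.0% and 14.1% of cells outside the gate had an Ins2 UMI (89.6% and 43.1% unthinned, at median depths of 6677 and 6720). Mesenchymal-like cells, which should lack the gene, gave 54.6% and 12.2% at median depths of 5382 and 5263.5 UMIs. Macrophage-like cells gave 51.9% and 11.3%, endothelial-like 58.9% and 10.5%, and ductal-like 48.5% and 11.3%. Shares were thus alike in these unrelated cells, and a UMI of the members in a cell outside the gate was not read as expression. The source of these UMIs was not tested. Acinar-like cells stood higher in both libraries, with an Ins2 UMI in 77.7% of 103 control and 21.5% of 740 knockout-labelled thinned cells.

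The share of Ins1 among insulin UMIs varied between sets of cells outside the gate. Ins1 made up 22.5% of insulin UMIs in control cells with no gate UMI (interval 21.6 to 23.4) and 22.1% in such knockout-labelled cells (interval 20.4 to 23.8), against 32.1% and 32.0% in gated cells. In control mesenchymal-like cells it was 21.1% (interval 19.3 to 22.9) and in acinar-like cells 21.6% (interval 19.3 to 24.1). Other sets did not lie below the gated cells: control cells of unnamed clusters were at 31.1% (interval 29.0 to 33.2), and the unnamed cluster of low depth at 38.2% (interval 35.1 to 41.3) in control. Barcodes with under 500 genes were at 31.8% (interval 30.9 to 32.8) in control and 29.9% (interval 27.5 to 32.4) in the library labelled knockout. The cause of these differences was not tested. Subtracting the level of gate-negative cells from gated cells left ratios of 0.415 for Ins1, 0.415 for Ins2 and 0.657 for Iapp.

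Genes of insulin synthesis were then compared in gated cells, on totals without the members, from 5 lists chosen with earlier results of these data known. The median log2 ratio of all 11060 genes was 0.04. Beside the 9.55% of all genes lower by at least 1.5-fold and the 11.2% higher, the counts by list were as follows. None of the 14 measured transcription factors of the insulin genes passed 1.5-fold either way, and their median was 0.06. Isl1, a factor of all islet cells, stood at 574 and 420 CPM (ratio 0.731, interval 0.671 to 0.796). Pdx1 stood at 182 and 144, and Nkx6-1, a beta cell identity factor, at 230 and 174. Mafa, the factor of mature beta cells, had 0 UMIs in gated cells of both libraries, so it added nothing to the beta-marker sum. Whether this reflects absent transcript or 3′ ends that were not counted was not tested.

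Of 22 genes for translocation and folding in the endoplasmic reticulum, 14 were lower by at least 1.5-fold and 0 higher, with a median of -0.67, and 7 were lower with the members in the totals. Sec61b, a subunit of the channel that admits preproinsulin, stood at 2314 and 1585 CPM (ratio 0.685, interval 0.656 to 0.715), and its partner Sec61g at 1926 and 1272 (ratio 0.661, interval 0.629 to 0.693). Ero1lb, an oxidase that helps form the disulfide bonds of proinsulin, stood at 246 and 109 (ratio 0.442, interval 0.376 to 0.517). Creld2, a chaperone-like protein induced by folding stress, stood at 304 and 134 (ratio 0.442, interval 0.383 to 0.510). In the beta-marker cells, 7 of the 22 were lower, beside 9.87% of 10114 genes, and 0 were higher, beside 12%.

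Of 15 genes of prohormone processing and granules, 6 were lower and 0 higher, with a median of -0.30, and 5 were lower with the members in the totals. The convertase Pcsk2 stood at 3185 and 2584 CPM, and the carboxypeptidase Cpe at 868 and 716 (ratios 0.811 and 0.825). The convertase Pcsk1, which makes the first cut in proinsulin, stood at 184.9 and 83.4 (ratio 0.451, interval 0.375 to 0.540). Slc30a8, the transporter that loads granules with zinc, stood at 499 and 182 (ratio 0.365, interval 0.323 to 0.411), and Ptprn, a granule membrane protein, at 95.3 and 42.0 (ratio 0.440, interval 0.338 to 0.568). Within the beta-marker cells 6 of the 15 were lower, beside 9.87% of 10114 genes, and 0 were higher, beside 12%.

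Of 12 measured genes of glucose sensing and maturity, 9 were lower and 0 higher, with a median of -1.49, and the same 9 of 12 were counted with the members in the totals. Nnat stood at 3825 and 1225 CPM (ratio 0.320, interval 0.306 to 0.335) and Slc2a2 at 193 and 40.3 (ratio 0.208, interval 0.161 to 0.266). Cox6a2, a subunit of the respiratory chain, had 215 and 18 UMIs (ratio 0.154, interval 0.0898 to 0.250). Within the beta-marker cells 9 of the 12 were lower, beside 9.87% of 10114 genes, and 0 were higher, beside 12%. The median there was -1.02. Slc2a2, Slc30a8 and G6pc2 also define the beta-marker range, so they say nothing new within it. Fewer beta cells and less RNA per beta cell cannot be told apart in these pooled values.

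Of 7 other islet peptides, 2 were lower and 2 higher, with a median of 0.19. Gcg stood at 13069 and 7204 CPM (ratio 0.551, interval 0.540 to 0.562) and Npy, neuropeptide Y, at 990 and 317 (ratio 0.321, interval 0.293 to 0.351). Sst, somatostatin, stood at 4124 and 7328 (ratio 1.78, interval 1.73 to 1.82), and the gut peptide Pyy at 8692 and 9910. Of the 13095 knockout-labelled Sst UMIs, 2434 came from 1 cell. An Sst UMI was in 70 of 345 control and 45 of 211 knockout-labelled cells. Cartpt, a neuropeptide precursor, had 63 UMIs in control and 406 in the library labelled knockout (ratio 11.9), of which 256 were in 1 cell. With the members in the totals, Ppy also passed 1.5-fold as higher.

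**Figure D5:**
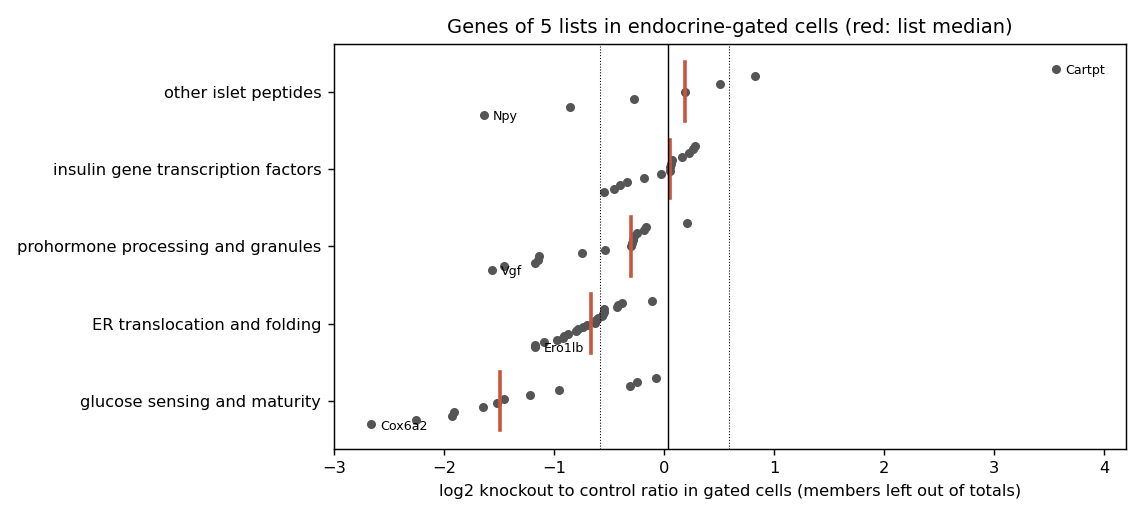
Log2 knockout to control ratio in gated cells (horizontal axis, members left out of the totals) for each measured gene of 5 lists, 1 point per gene, with the list median in red, the median of all genes as a solid line and 1.5-fold as dotted lines. The medians run from -1.49 for glucose sensing and maturity to 0.19 for other islet peptides, and the transcription factors lie between the dotted lines.

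The genes most like the members in their pattern over gated cells were sought by the weaker of the correlations in the 2 libraries with the summed members, over 9160 genes. These correlations also used totals without the members. Ppp1r1a, a phosphatase inhibitor, came first (0.83 in control, 0.73 in the library labelled knockout), followed by Gng12, a G protein subunit, and Dlk1, an imprinted transmembrane protein. Scg2, Sec61g, Sec61b, Sytl4, Pcsk2, Manf, Slc30a8, Scg3 and Ero1lb completed the 12. The level of Dlk1 in gated cells did not follow that of insulin between the libraries, at 811 and 875 CPM (ratio 1.08, interval 1.01 to 1.15). Ppp1r1a stood at 558 and 242 CPM (ratio 0.434, interval 0.390 to 0.482) and Gng12 at 568 and 302. Within the set, Pcsk2 correlated more with Iapp (0.75 and 0.67) than with Ins2 (0.42 and 0.39), and Sytl4, a granule docking protein, more with Ins2 (0.80 and 0.74) than with Iapp (0.58 and 0.52). The 6 lowest were Marcksl1, Nfib, Pgrmc1, Rbms3, Mdk and Actg1, from -0.41 and -0.42 for Marcksl1 to -0.41 and -0.33 for Actg1.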

How the data were processed

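Per the labels' protocols, dissociated pancreas was loaded on the 10x Chromium 3′ v2 system for a target of 10000 cells per library. The deposited matrices hold raw UMI counts per gene and barcode, written by Cell Ranger 3.0.0 per the file headers. GRCm38 and mm10 are the builds, and Cell Ranger and Seurat (2 and 3) the tools, listed in the submitters' processing notes. Counting settings were not stated in the sources. The matrices held barcodes down to few genes, so cells with under 500 genes or over 10% mitochondrial UMIs were removed, as were doublets called by Scrublet in scanpy 1.11.5 (22 control, 24 knockout). Clustering (Leiden, resolution 1, on 2000 variable genes) left hormone genes out.

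UMIs were summed over cells per library. Intervals are exact Poisson for sums, Clopper-Pearson for shares and exact conditional binomial for ratios, at 95%. Log2 ratios used 0.5 added to each count, and genes needed 20 UMIs. Shares of cells with a UMI were compared after thinning to 2000 UMIs; other shares are at full depth. With 1 library per group there was no test and no p-value. The scripts were tested on simulated data.

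The members, lists and comparisons were chosen with earlier results of these data known. Genes named are the 3 members, from each list 2 by UMI number and 2 by distance of the ratio from 1 (minimum 100 UMIs), and the 12 highest and 6 lowest genes by the weaker correlation, among genes with a UMI in 5% of gated cells of each library. Pdx1, Nkx6-1, Mafa, Pcsk1, Sst, Ppy and the genes of the Ins1-majority cells were named after their values were seen. Some genes that the rule names are not reported here. Another gate, other depths, filters, totals and doublet handling were tried. The authors' deposited table of cluster genes was not used.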

Additional observations from a re-analysis of the deposited data

Results flagged for a closer look

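Signal was present in barcodes that the comparisons left out. The 1290 control barcodes with under 500 genes held 9760 UMIs of the 3 members (0.961% of that library's), and the 1465 such knockout-labelled barcodes held 1539 (0.746%). In control, 1 barcode with 97 genes held 4582 of them among its 4785 UMIs, and in the library labelled knockout 1 barcode with 233 genes held 891 among 1183. Without these, the members stood at 1612 and 151 CPM (UMIs per 1000000) in such barcodes. Ins1 made up 31.8% and 29.9% of insulin UMIs there.

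In the Neurog3-led cluster the knockout to control ratio of Ins2 was 12.4, opposite in direction to 0.566 in the Ins1- and Sst-led cluster. The difference was not tested, and without the richest cell of each library the ratio was 0.343. The control level behind that ratio, 409 CPM, was not above the 427 CPM of control cells with no gate UMI. In the Gcg-led cluster the ratio of Ins1 was 1.66, against 0.570 in the Ins1- and Sst-led cluster. This difference was not tested either, and without the richest cell of each library the ratio was 1.502. The median cell of the Gcg-led cluster stood at 182 Ins1 CPM in control and 0 in the library labelled knockout.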

How the results depend on the processing

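No paired analysis was possible because each group is 1 library. Left-out libraries could not be tried for the same reason. Of the alternatives run, none turned the direction of Ins1, Ins2 or Iapp in gated cells. The ratios of Ins1, Ins2 and Iapp, in that order, were 0.428, 0.428 and 0.669 with at least 10 gate UMIs, 0.405, 0.365 and 0.669 after thinning, and 0.355, 0.356 and 0.562 on totals without the members. Replacing the gate by the endocrine-like clusters gave 0.397, 0.398 and 0.625, and leaving out the 10 richest cells of each library gave 0.281, 0.261 and 0.557. Ins1 and Ins2 were at 0.418 and 0.418 with at least 1000 genes per cell, 0.421 and 0.422 with doublets kept, and 0.396 and 0.371 as means of per-cell shares. Without granins in the gate Ins2 and Iapp were at 0.412 and 0.647.

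The Ins1 percent, knockout minus control, was -0.028 points, and it was above 0 under several alternatives: 0.245 points without granins in the gate, 2.28 after thinning, 0.451 as the median of per-cell percents and 1.62 without the 10 richest cells. Iapp per 100 insulin UMIs had ratios of 1.56 with at least 10 gate UMIs, 1.78 after thinning and 2.08 without the 10 richest cells. The ratio of the share of hormone-rich cells stayed between 0.417 and 0.511 over 7 alternatives, and that of Ins1-majority cells between 5.25 and 10.5 over 10. The level outside the gate had a ratio of 0.143, against 0.181 in cells with no gate UMI and 0.171 in mesenchymal-like, endothelial-like and macrophage-like cells.

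Counts of genes past 1.5-fold, lower and higher, were 568 and 2384 with the members in the totals and 378 and 283 among genes with at least 100 UMIs, where 6250 genes are measured. With 1 UMI in each library as the minimum, 1545 were lower and 2868 higher of 14457. Cluster settings in place of the gate, the left-out cells and every alternative for Ins1-majority cells and for Iapp per insulin were chosen after seeing the data. Where no other cause is named, the cause was not tested. Depth limits values in shallow cells, and in small clusters 1 cell can decide a pooled value.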
